A study of Caenorhabditis elegans with 15 samples.

Results

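The linc genes of Caenorhabditis elegans are named for long intergenic noncoding RNAs. They were taken as every gene whose symbol is linc followed by a number, after the deposited gene identifiers had been matched to the WBcel235 annotation. This gave 170 genes of the 46926 in the table. The annotation classes 169 of them as lincRNA and linc-171 as ncRNA. In at least 1 genotype, 77 of the 170 (45.3%) reached an average of 20 normalized counts, against 37.9% of all genes. Long intergenic noncoding RNAs are transcripts that lie mostly between coding genes and carry no long open reading frame. Many are capped, spliced and polyadenylated like messenger RNAs, and most are made at low levels. In worms few have a described function, so nearly all members can be described here by position and level only.

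The study measured polyA RNA of whole animals at the L4 stage, the last larval stage, by short-read sequencing. The 15 libraries comprised 6 of wild type (WT) and 3 of each mutant. The labels give the mutants as knockouts, namely u218 KO, u74 KO and, with its allele, mec-8 (e398) KO, all in the N2 strain. mec-8 encodes an RNA-binding protein that regulates splicing, and the labels name no gene for u74 or u218. The deposited counts of all genotypes are titled as those of MEC8 mutants, without saying whether that covers u74 and u218. The deposited table holds 1 averaged normalized count per gene and genotype. mec-8 itself averaged 1070 normalized counts in e398, against 1956 in wild type, 2239 in u74 and 3620 in u218, so its RNA was present in the knockout.

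Counts per library were recovered from the repeated steps of the averages, for averages up to 1000 normalized counts in e398, 300 in u74 and u218 and 10 in wild type. The libraries are numbered by falling size factor within a genotype, and this number is not a replicate number of the labels. Size factors, which scale with sequencing depth, ran from 0.471 to 1.99. The wild-type libraries stood apart in 2 sets, libraries 1 to 3 at 1.59 to 1.82 and libraries 4 to 6 at 0.471 to 0.531. The e398 libraries (0.476 to 0.685) were close to the second set, the u74 libraries (1.46 to 1.95) to the first, and u218 had libraries at 1.99, 1.79 and 0.831. The labels give no batch, so genotype and library set cannot be told apart for e398 and u74. Nothing in the labels says that libraries of a genotype came from separate cultures, so p-values measure the spread between these libraries.

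The linc genes were higher in wild type and e398 than in u74 and u218. The median member averaged 9.87 normalized counts in wild type and 8.84 in e398 but 1.76 in u74 and 2.56 in u218. At 20 normalized counts or more stood 62 members in e398 and 59 in wild type, and 35 in u74 and 31 in u218. Summed over the members, the averages came to 19353 in e398 and 12204 in wild type, and to 4579 in u74 and 5885 in u218, between 0.00726% and 0.0153% of a column. Only 15 members reached 20 in all 4 genotypes, and 36 did so in wild type or e398 but in neither u74 nor u218. The reverse held for 6, namely linc-24, linc-39, linc-50, linc-55, linc-56 and linc-63. Another 15 members were listed at 0 throughout. Just outside the threshold lay linc-93, linc-168 and linc-87, whose highest averages were 18.7, 19 and 19.9. Just inside it lay linc-53, linc-55 and linc-64, at 20.2, 20.9 and 22.1.

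**Figure D1:**
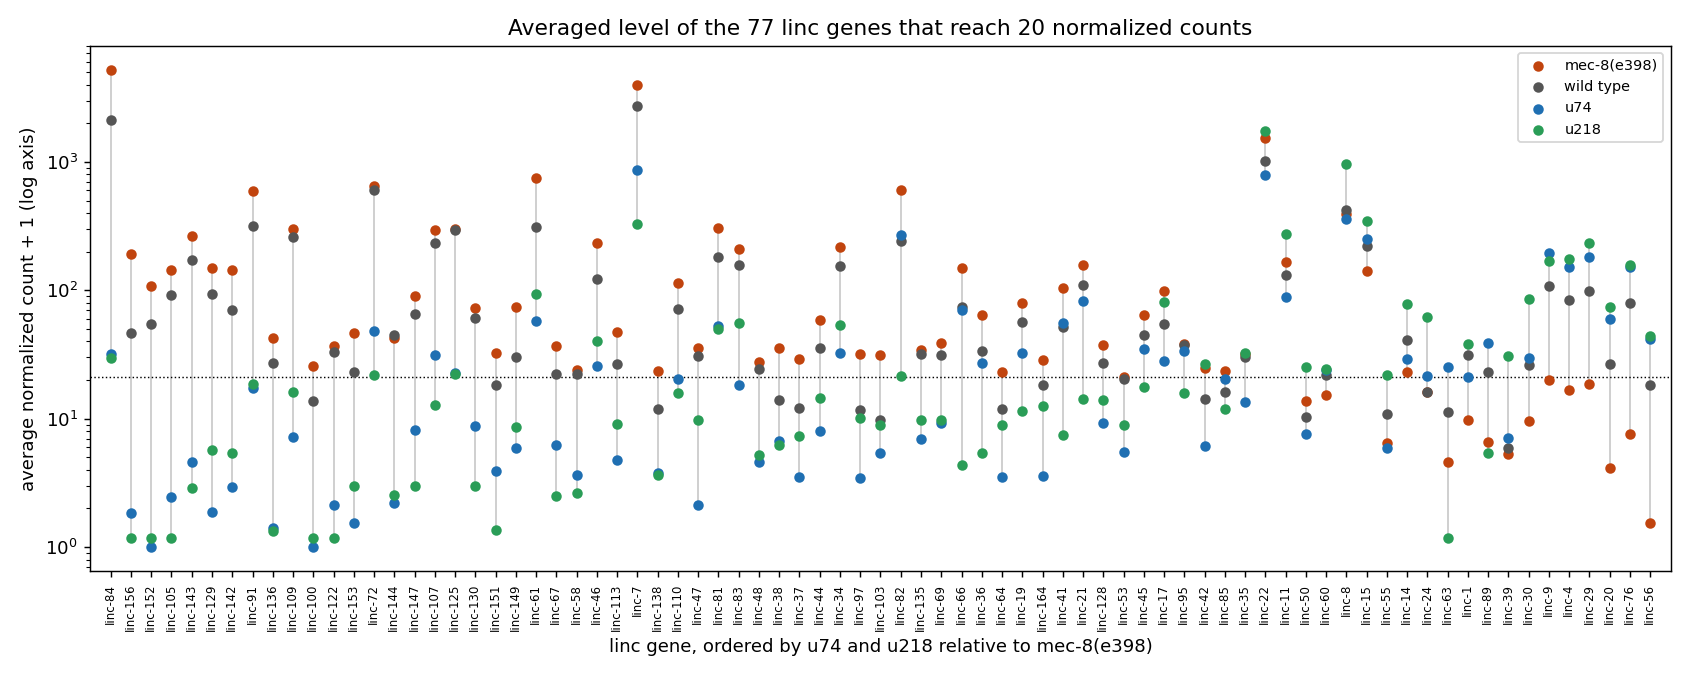
Average normalized count plus 1 (log axis) of each of the 77 linc genes that reach 20 normalized counts, in wild type, mec-8(e398), u74 and u218; vertical lines join the lowest and highest genotype and the dotted line marks 20. On the left e398 and wild type lie far above u74 and u218, and on the right linc-76, linc-20 and linc-56 are lowest in e398.

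A few genes made up much of the signal. linc-84 and linc-7 together gave 39.9% of the summed wild-type average and 47.5% of that in e398. linc-84 (WBGene00219592) is a single-exon gene of 680 bases that lies divergent to F55H12.7. It averaged 5223 normalized counts in e398 and 2134 in wild type, but 31.2 in u74 and 28.9 in u218. linc-7 (WBGene00219609, X:16002599-16003728, plus strand, WBcel235) has 1 exon and lies in the span of C09G1.4 on the opposite strand. The average was 3976 in e398 and 2737 in wild type, with 870 in u74 and 331 in u218. Per kilobase of exon, the mean over the 4 columns was highest for linc-84, at 2727 normalized counts per kilobase, followed by linc-7 at 1751. linc-15, linc-8 and linc-61 came next, at 706, 610 and 576.

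Other abundant members had their highest average in u218. linc-22 (X:9069138-9073735, plus strand), a gene of 5 exons with 4071 exonic bases, averaged 1743 in u218, 1527 in e398, 1008 in wild type and 793 in u74. linc-8 (II:2501838-2503802, minus strand), also of 5 exons, averaged 968, 395, 423 and 355 in the same order. linc-15 (X:11991484-11991933, minus strand) averaged 346, 139, 220 and 250. These averages carry no library values in u218, so the size of its difference could not be set against a spread.

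Against the wild-type average, the members were lower in u74 and u218 far more often than the table as a whole. Each ratio here is log2 of (average + 1) over (wild-type average + 1), called at 2-fold among genes with 20 normalized counts in either column, with no test. A gene can pass this filter through its higher column alone, which favours 2-fold calls in genes of low level. The shares of members and of all genes were not matched for level. In u74, 36 of 62 members were at least 2-fold lower and 3 were higher, where 29.0% and 6.47% of all genes were. In u218, 43 of 65 members were lower and 11 higher, against 35.8% and 10.4% of all genes. In e398, 8 of 71 members were lower and 12 higher, against 19.9% and 11.4%. The median ratios of the members were -1.78 in u74, -1.73 in u218 and 0.54 in e398, and those of all genes were -0.07, -0.26 and -0.05. No member lay at least 2-fold off wild type in the same direction in all 3 mutants. The 3 comparisons share the wild-type column. In whole animals, fewer cells of a type and less RNA per cell cannot be told apart.

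The wild-type average lay between those of e398 and u74 for 69 of the 77 members that reached 20 (89.6%, against 77.2% of all such genes). It was within 2-fold of their midpoint for 74 (96.1%, against 92.7%). Each wild-type set holds 3 of the 6 libraries, so its mean is at most 2 times the wild-type average. An average called 2-fold higher than wild type therefore also lies above the mean of either set, and the lower calls carry no such bound.

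**Figure D2:**
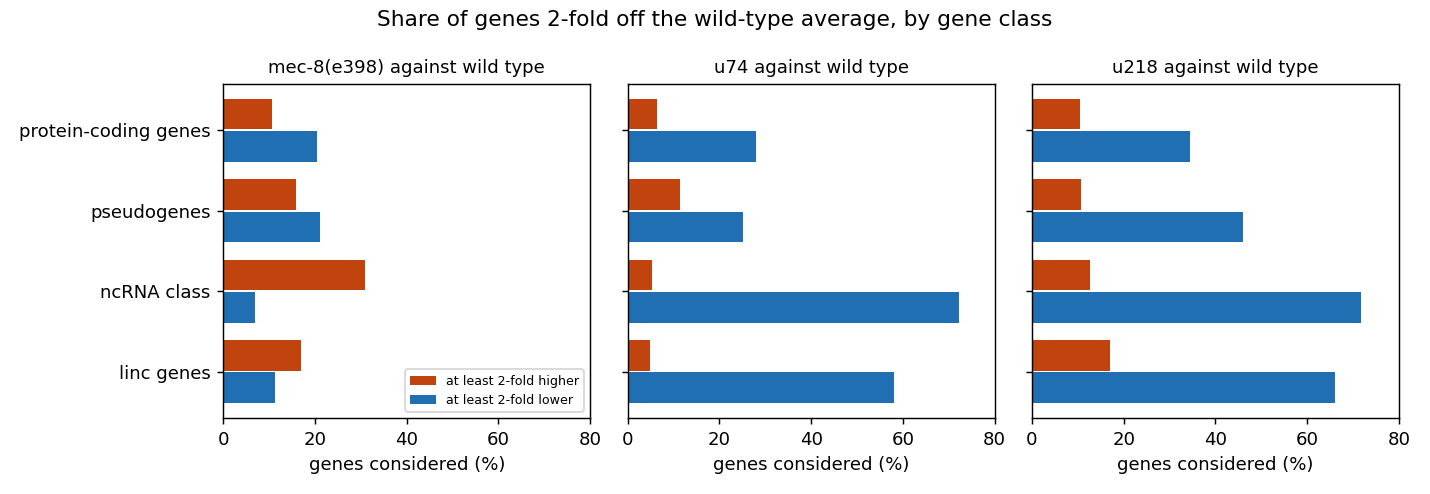
Share of genes (%) at least 2-fold higher (orange) or lower (blue) than the wild-type average, among genes with 20 normalized counts in either column, for linc genes and 3 annotation classes. In u74 and u218 the linc genes and the ncRNA class have 58.1% to 72.3% lower, against 28.1% and 34.5% of protein-coding genes.

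Other noncoding classes varied. In the ncRNA class, which holds 7763 genes besides the linc genes, 136 of 188 genes were lower in u74, 142 of 198 in u218 and 94 of 304 higher in e398. Among the 57 anr genes, annotated as antisense noncoding RNAs, 7 of 11 were lower in u74 and 6 of 12 in u218. Of the 25 genes of the lincRNA class without a linc name, 7 of 16 were lower and 3 higher in u74. In u218 only 3 of 15 were lower and 4 higher, with a median ratio of -0.10. Protein-coding genes were lower in 28.1% of cases in u74 and 34.5% in u218. Histone and ribosomal RNA genes, whose RNA mostly lacks a poly(A) tail, took 2.27% of the e398 column and 1.92% of wild type, but 0.859% of u74 and 0.607% of u218. In that list 43 of 62 genes were higher in e398, 48 of 57 were lower in u74 and 32 of 57 lower in u218. The part of library composition in the linc values was not tested.

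The 2 wild-type sets also differed in linc genes of low level, as in genes of low level at large. Counts of all 6 wild-type libraries were recovered for 86 members of low level. Their summed normalized counts were 102 to 188 in wild-type libraries 1 to 3 and 264 to 363 in libraries 4 to 6, with no overlap. The corresponding sums lay within 267 and 324 in e398, within 85.7 and 125 in u74, and within 190 and 247 in u218. Of the 26 members with a set mean of at least 5, 19 (73.1%) were at least 2-fold higher in the small-factor libraries and 5 (19.2%) in the large-factor ones, against 72.1% and 17.4% of all 2663 such genes. A gene of low level can pass this filter through its higher set alone, so the filter itself favours a 2-fold difference in either direction. These shares therefore do not measure how often the sets differ. By limma on log2(normalized count + 1), 5 of 16 tested members were higher in the small set and 0 lower, where 37.5% and 6.92% of all genes tested were. At an unadjusted p below 0.05 there were 9 members. The mean that a gene must reach to be tested by limma can likewise come from its higher set alone. linc-166 and linc-117, at or near 0 in libraries 1 to 3, passed in this way. The number of limma calls therefore does not measure how often the sets differ either. Members and all genes passed the same filter, and both were called higher in the small set more often than lower. linc-166 gave 0, 0 and 0.630 normalized counts in libraries 1 to 3 and 18.8, 12.3 and 12.7 in libraries 4 to 6 (log2 ratio 3.71, limma adjusted p = 0.00486). linc-117 was at 0 in the first 3 and at 16.9, 4.09 and 23.4 in the others (limma adjusted p = 0.00653). The other 3 were linc-126, linc-118 and linc-25.

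**Figure D3:**
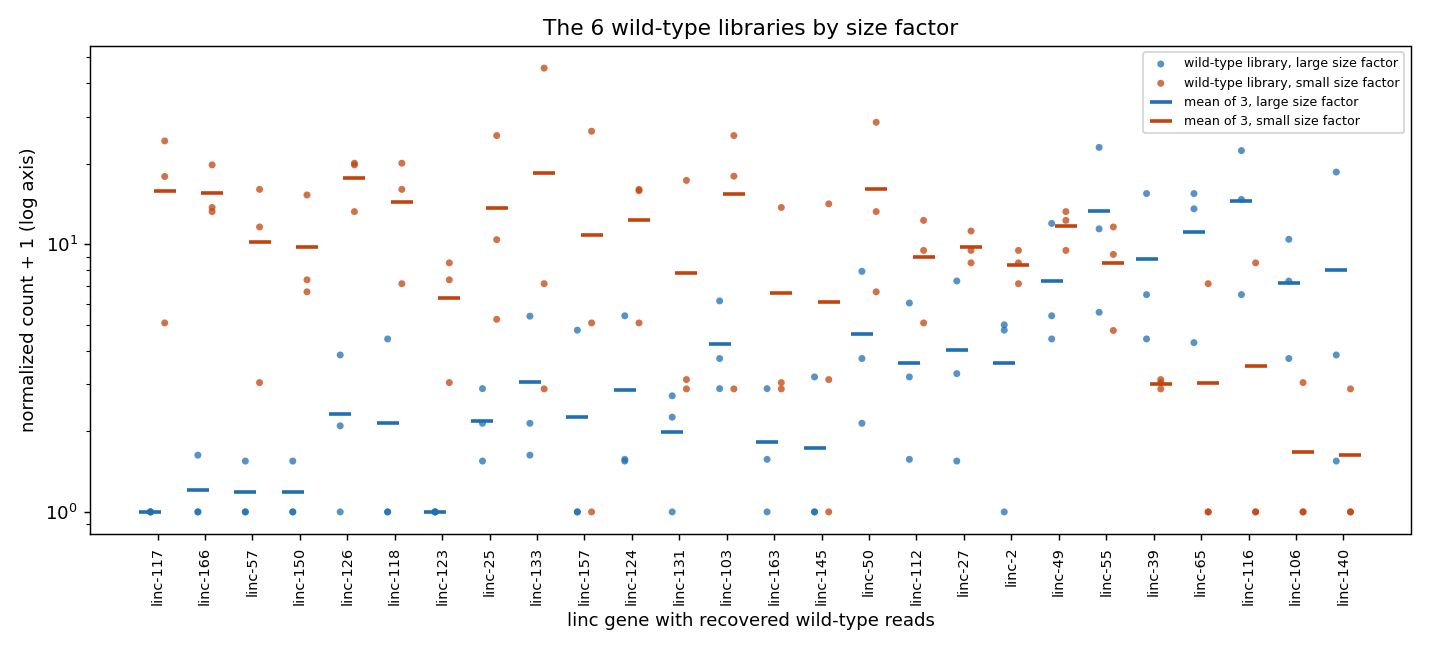
Normalized count plus 1 (log axis) in each wild-type library for the 26 linc genes with recovered wild-type counts and a set mean of at least 5; blue points are the 3 libraries of large size factor, orange points the 3 of small size factor, and bars their means. linc-117 and linc-166 are near 0 in every library of large size factor and above 4 in every library of small size factor.

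Few members could be tested against wild type, since those averages resolve only up to 10 normalized counts. That limit favours rises. With all 6 wild-type libraries, limma called 0 of 19 members in e398 (2.05% of all genes rose and 0.0% fell) and 0 of 11 in u74 (3.23% and 0.0%). At an unadjusted p below 0.05 there were 1 member in e398 and 0 in u74, and limma voom, which weights counts by precision, called 3 and 0. Voom called 25.6% of all genes as risen in e398, above the 15.8% of the members. In u218, limma without voom called 1 of 14 (3.08% and 0.0%), linc-39, which rose with a log2 ratio of 2.67 ± 0.79 (SE, limma adjusted p = 0.0282). linc-39 gave 27.2, 37.3 and 25.3 normalized counts in u218 and 1.88 to 14.5 in wild type, so the groups did not overlap. Its call was lost with TMM scaling, a lower filter, any u218 library left out, or wild type cut to its large-factor set, where the limma adjusted p ran from 0.0755 to 0.427.

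The calls differed with the wild-type set used. Against the small-factor set of wild type, limma called 0 of 24 members in e398 (1.17% of all genes rose and 0.0% fell), with 0 at an unadjusted p below 0.05. Against the large-factor set, 5 of 16 rose in e398 and linc-116 fell (37.8% and 4.27%). In u74, 0 of 7 members were called against the large set (0.59% and 0.0%), with 0 at an unadjusted p below 0.05, and 8 of 14 fell against the small set (12.7% and 41%, the latter 562 of 1370 genes). In u218, only linc-50 rose of 9 tested against the large set (3.31% and 0.382%). Against the small set, linc-39 and linc-168 rose and linc-126, linc-166 and linc-124 fell of 18 tested (8.63% and 27.1%).

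Between mutants, the members whose libraries were all recovered and whose mean was at least 5 normalized counts were tested, 87 in either comparison with e398 and 62 between u218 and u74. In u74 against e398, limma called 46 of 87 members as fallen and 9 as risen, where 36.1% and 14.6% of all genes tested were. In u218 against e398, 37 of 87 fell and 12 rose, against 30.5% and 11.1%. Median log2 ratios of the members were -2.07 and -1.98, and those of all genes tested were -0.76 and -1.15. With TMM scaling, which brings the median of all genes to -0.06 and -0.50, 36 fell and 12 rose in u74, where 27.5% and 24.4% of all genes did. In u218 under TMM 27 fell and 14 rose, against 19.8% and 17.5% of all genes. Without u218 library 2, 23 of 89 fell (25.8%) and 7 rose (7.87%) in u218, against 15.4% and 3.89% of all genes. These comparisons share the e398 libraries and set e398, whose libraries have small size factors, against u74, whose libraries have large ones. Wild-type libraries of these sizes differed as described above.

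Several falls were close to complete. linc-152 (II:15257371-15259799, plus strand) gave 108, 93.6 and 118 normalized counts in the e398 libraries, 0 in all u74 libraries and 0.503, 0 and 0 in u218. Its wild-type average was 53.4. Against a floor of 3 reads over the u74 libraries, e398 was at least 177-fold higher (limma adjusted p = 0.000492). linc-105 (III:10718341-10719485, plus strand) gave 152, 158 and 120 in e398, 3.08, 0.632 and 0.686 in u74, and 0, 0.557 and 0 in u218. The log2 ratio to e398 was -6.0 ± 0.54 (SE) in u74 and -6.95 ± 0.61 in u218 (limma adjusted p = 0.000543 and 0.00437). For both genes every e398 library lay far above every u74 and u218 library.

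Some of these members lie within or beside coding genes. linc-143 (III:3035541-3037543, minus strand) lies in the span of daf-2, the insulin receptor gene, on the same strand, without touching its exons. It gave 175, 483 and 132 in e398, 3.08, 5.05 and 2.74 in u74, and 1.51, 1.67 and 2.41 in u218. linc-142 (X:12517114-12519034, minus strand) lies likewise in the span of scd-1, a receptor tyrosine kinase gene, and gave 171, 145 and 116 in e398, 2.57, 2.53 and 0.686 in u74, and 1.51, 2.23 and 9.63 in u218. Both genes fell in both comparisons without overlap of libraries (limma adjusted p from 0.000543 to 0.00506).

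Further falls covered members near other coding genes. linc-129, divergent to the calcium pump gene sca-1 at 413 bases, gave 78.9, 246 and 120 in e398, at most 1.37 in u74 and at most 10.8 in u218. linc-122, divergent to the intermediate filament gene ifb-1 at 217 bases, gave 35.0, 46.0 and 27.3 in e398, at most 2.05 in u74 and at most 0.503 in u218. linc-109, 212 bases from smap-1, gave 232, 445 and 221 in e398, 4.62, 5.69 and 8.23 in u74 and 9.06, 23.4 and 13.2 in u218. linc-156 had the lowest log2 ratio of the members in u218 against e398, -7.15 ± 0.75 (SE), and -6.50 ± 0.65 in u74 (limma adjusted p = 0.00437 and 0.000543), with e398 libraries spread widely at 294, 67.4 and 214. linc-136 and linc-107 fell as well. Most genes called over the whole table had no overlap of libraries (99.0% in u74 and 96.5% in u218 against e398), and the members likewise except linc-38 in u218 against e398, which gave 11.5 to 52.6 in e398 and 1.51, 1.11 and 13.2 in u218. linc-38 lost both its calls with TMM scaling (limma adjusted p = 0.104 and 0.112).

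A smaller group went the other way and was low in e398. linc-76 (III:11126863-11129355, minus strand) gave 5.84, 9.86 and 4.21 normalized counts in e398, 146, 111 and 198 in u74, and 139, 153 and 178 in u218, with a wild-type average of 79.1. Its log2 ratio to e398 was 4.35 ± 0.48 (SE) in u74 and 4.43 ± 0.58 in u218 (limma adjusted p = 0.000625 and 0.00466). For linc-76, every e398 library was far below every u74 and u218 library. Its exons overlap those of 2 coding genes, Y48A6C.4 on the opposite strand and Y48A6C.8 on the same strand. As the strandedness of the libraries is not given in the sources used here, reads of these genes cannot be told apart. Even stranded reads would not separate linc-76 from Y48A6C.8. Y48A6C.4 was likewise lowest in e398, averaging 502, against 2078 in wild type, 3718 in u74 and 3638 in u218.

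Other members of this group stand clear of coding exons. linc-29 (IV:6354024-6357243, plus strand), 4725 bases from the nearest coding gene, gave 14.7 to 19.7 in e398, 175, 169 and 196 in u74, and 183, 181 and 341 in u218. linc-20 (X:16508081-16509294, minus strand) gave 7.30, 0 and 2.10 in e398, 46.7, 53.7 and 75.4 in u74, and 53.3, 67.4 and 98.7 in u218. linc-4 (II:6268939-6269516, plus strand) gave 17.5, 27.9 and 2.10 in e398, 147, 128 and 180 in u74, and 171, 180 and 173 in u218. All 3 rose in both comparisons (limma adjusted p from 0.000619 to 0.0114), as did linc-9, linc-56 and linc-30. linc-56 was at 0, 1.64 and 0 in e398 and at least 21.7 in every u74 and u218 library, but overlaps an exon of ssr-2 on the opposite strand. linc-76, linc-29, linc-20, linc-4, linc-9 and linc-30 were also at least 2-fold below the wild-type average in e398. The calls of linc-30 were lost without any single u74 library, without e398 library 3 or without u218 library 2 (limma adjusted p from 0.0528 to 0.102). For these genes the wild-type libraries are not resolved, so e398 could not be compared with either set alone.

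Described long noncoding RNAs differed among genotypes as well. rncs-1, a noncoding RNA that binds Dicer, averaged 3.53 in e398, against 623 in wild type, 2345 in u74 and 3343 in u218, and the e398 libraries stood at 7.30, 3.29 and 0. tts-1, a ribosome-associated noncoding RNA known from long-lived worms, averaged 2753, 1409, 4157 and 7689 in the same order. lep-5, which acts in the timing of development, averaged 4063, 9686, 11630 and 25914.

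Between u218 and u74, 16 of 62 tested members differed. In u218, 9 members fell (14.5%) and 7 rose (11.3%) relative to u74, close to the 16.0% and 10.7% of all genes tested, so the number of calls does not set the members apart. The median log2 ratio was 0.30 for the members and 0.23 for all genes. The libraries of the genotypes did not overlap in any of the 16, as in 100% of the 1636 genes called in all. With TMM scaling 7 fell (11.3%) and 3 rose (4.84%), namely linc-11, linc-39 and linc-42. Of all genes tested, 16.5% fell and 3.50% rose under TMM. Fewer were called when a library was left out: without u218 library 1, u218 library 2, u74 library 1, u74 library 2 or u74 library 3, between 1 and 3 rose and between 3 and 5 fell. Those fits called 1.52% to 4.69% of the members as risen and 4.69% to 8.33% as fallen. Over all genes the shares were 1.58% to 3.36% and 6.45% to 10.2%. Among the named calls, linc-82, linc-63, linc-41 and linc-11 passed with every alternative setting and every library left out, while linc-66, linc-21, linc-93, linc-39, linc-42, linc-14, linc-24 and linc-50 did not. Without u218 library 3, whose size factor is the smallest of that genotype, 12 of 58 rose and 10 fell (20.7% and 17.2%), below the 32.6% and 24.0% of all genes.

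**Figure D4:**
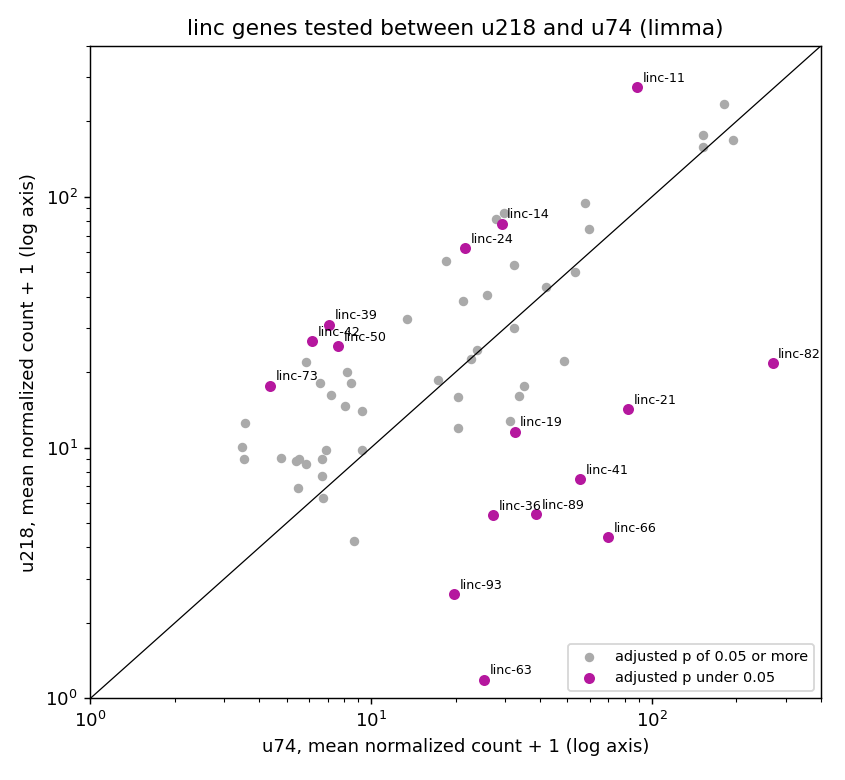
Mean normalized count plus 1 in u218 against u74 (both axes log) for the 62 linc genes tested; purple points are the 16 with a limma adjusted p under 0.05 and the line marks equality. linc-82 lies at 268 in u74 and 20.7 in u218, and linc-11 at 87.5 and 273.

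The lowest p belonged to linc-82 (WBGene00219570, III:3664858-3667041, plus strand), a gene of 4 exons. It gave 364, 231 and 210 normalized counts in u74 and 15.6, 13.9 and 32.5 in u218, a log2 ratio of -3.69 ± 0.45 (SE, limma adjusted p = 0.00284). In e398 it gave 911, 125 and 786, and its wild-type average was 243. It overlaps exons of C46F11.6 on the opposite strand. Every u74 library lay above every u218 library, and e398 library 2 lay far below the other two of e398.

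That arrangement recurred. linc-66 (II:2615725-2616219, minus strand) gave 79.6, 85.9 and 41.2 in u74, 0, 0.557 and 9.63 in u218 and 196, 31.2 and 219 in e398 (log2 ratio -4.71, limma adjusted p = 0.0134). linc-41 and linc-21 lie next to each other on chromosome IV, at 4241224-4241765 and 4242086-4242466 on the minus strand, with col-34, a cuticle collagen gene, as nearest coding gene. linc-41 gave 62.1, 55.0 and 46.6 in u74 and 7.04, 3.90 and 8.43 in u218 (log2 ratio -2.94, limma adjusted p = 0.00587). linc-21 gave 73.9, 99.2 and 70.6 in u74 and 4.53, 12.3 and 22.9 in u218 (log2 ratio -2.75, limma adjusted p = 0.0187). In e398 they were at 114, 32.9 and 162 and at 169, 102 and 202, so library 2 was the lowest for both. linc-63 gave 16.9, 19.6 and 36.4 in u74 and 0, 0.557 and 0 in u218, and was also low in e398, at 4.38, 0 and 6.31. linc-36, linc-89, linc-93 and linc-19 completed the falls.

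Markers of sperm were also lower in u218. The 38 listed sperm genes (the major sperm protein genes, gsp-3, gsp-4 and spe genes) summed to 3546 normalized counts in u218, against 207626 in u74, 491095 in e398 and 176732 in wild type. All 38 were at least 2-fold lower in u218 than in wild type, none was in u74, and none was at 0 in any column. In e398 the list was mixed, with 20 of the 38 at least 2-fold higher than wild type and 9 lower. Among those with recovered counts the library medians were 708, 32.0 and 714 in e398 (8 genes) and 9.06, 13.9 and 161 in u218 (36 genes). The 9 members that fell, with linc-82 the most abundant, summed to 1560, 384 and 1592 in e398, 724, 608 and 502 in u74, and 34.2, 40.1 and 120 in u218. Thus e398 library 2 was the lowest of its genotype for 8 of the 9, and u218 library 3 the highest of its own for 8 of the 9. The same counts over all 979 genes that fell in u218 against u74 are not given here. The library patterns therefore cannot be called particular to the members. Not all 9 members were higher in e398 than in u74: linc-63, linc-89 and linc-93 averaged 3.56, 5.60 and 11.0 in e398 but 24.3, 37.7 and 18.7 in u74. Oocyte and eggshell markers were at least 2-fold lower than wild type in u218 for 15 of 15 genes and in e398 for 13 of 15, and higher in u74 for 15 of 15. Yolk and adult markers were lower in u218 for 8 of 8, higher in u74 for 7 of 8, and in e398 higher for 2 and lower for 3. Epidermis and moulting markers were lower in u74 for 6 of 7 and higher for 0. In u218 2 of these were higher and 2 lower, and in e398 1 was higher and 0 lower. The part of these cell types in the linc values was not tested.

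**Figure D5:**
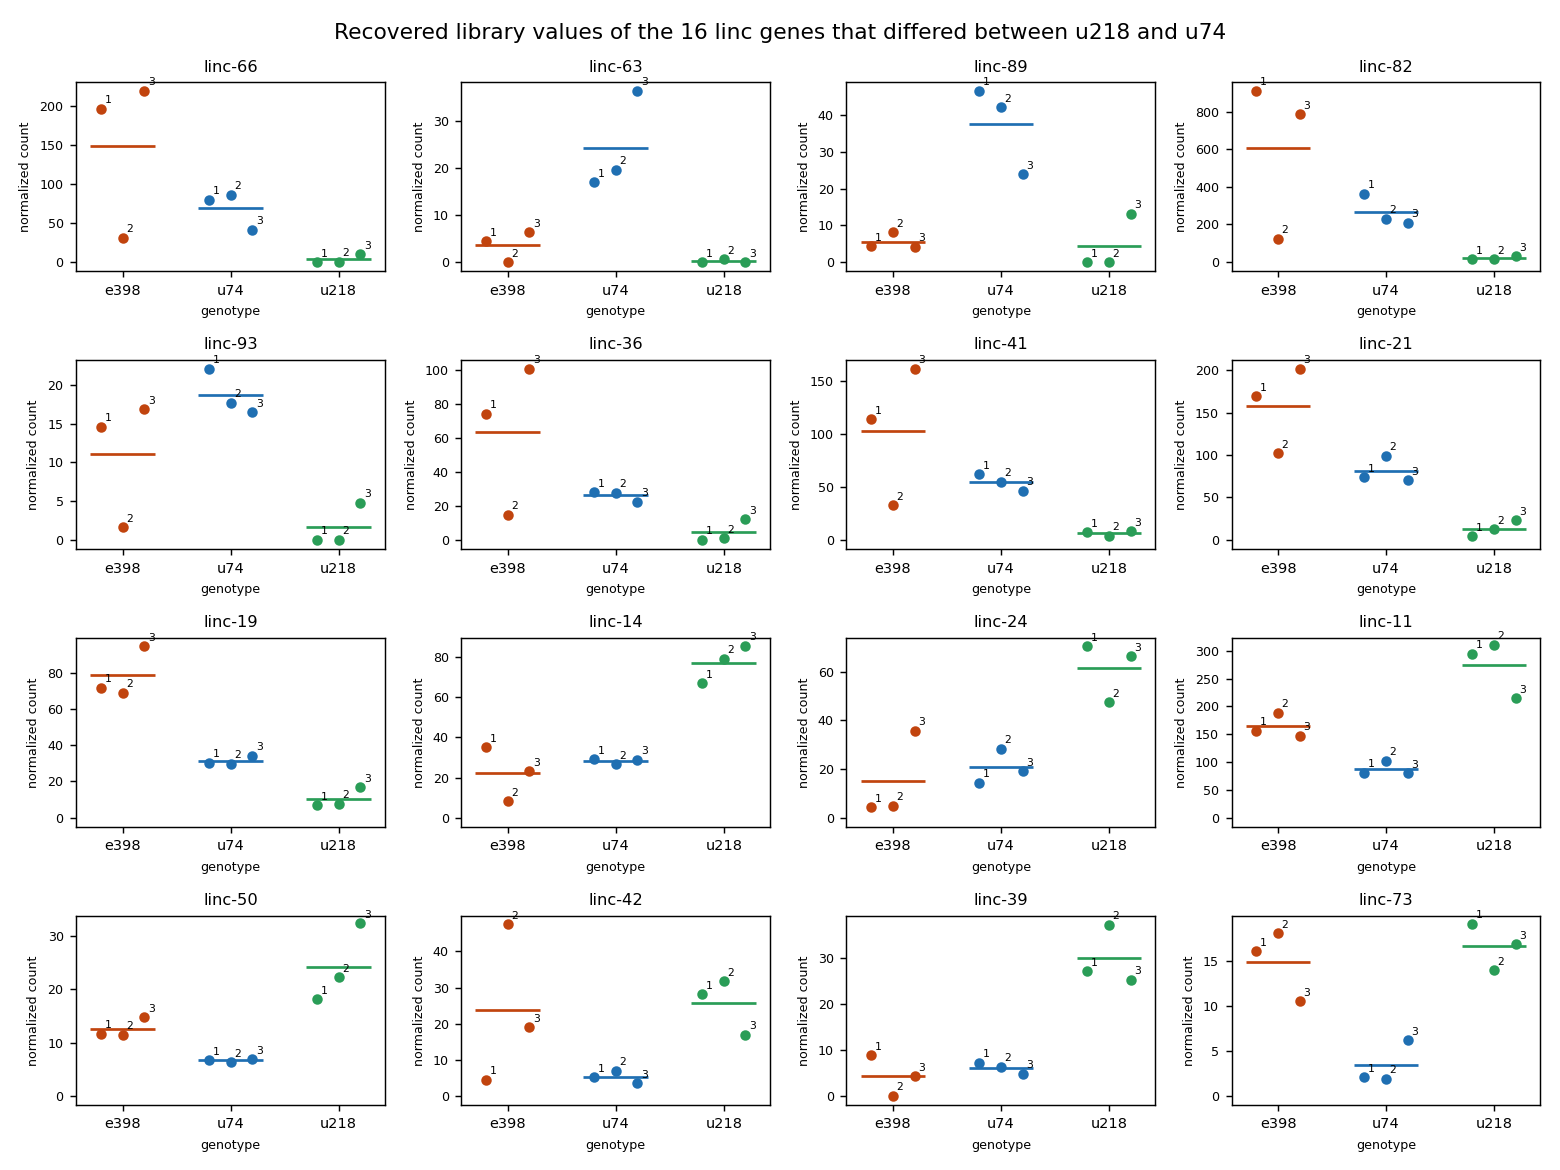
Normalized counts in each recovered e398, u74 and u218 library (points, numbered by falling size factor) with the mean (line) for the 16 linc genes that differed between u218 and u74. In linc-66, linc-82, linc-41 and linc-36, e398 library 2 lies far below libraries 1 and 3, and all u218 libraries lie below all u74 libraries.

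The 7 members that rose in u218 were linc-11, linc-39, linc-42, linc-14, linc-73, linc-50 and linc-24. linc-11 (II:3373169-3374185, minus strand) gave 80.6, 102 and 79.6 in u74 and 295, 311 and 214 in u218 (log2 ratio 1.62 ± 0.26 SE, limma adjusted p = 0.00678). It was at 156, 189 and 147 in e398, between the others. linc-14 gave 29.3, 26.5 and 28.8 in u74 and 66.9, 79.1 and 85.5 in u218 (log2 ratio 1.41, limma adjusted p = 0.0272). linc-50 gave 6.67, 6.32 and 6.86 in u74 and 18.1, 22.3 and 32.5 in u218. In contrast to the members that fell, u218 library 3 was the highest of its genotype for 2 of the 7 only, a count that is likewise not given for all genes that rose. Relative to wild type, linc-11, linc-39, linc-24 and linc-50 averaged at least 2-fold higher in u218.

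The members varied in length. Their median exonic length was 456.5 bases, within a range of 101 to 4183, and it was 524 bases for the members that reached 20 and 397 for those that did not. One exon was annotated in 54, 2 in 89 and at least 3 in 27. Of the 170, 110 lay within 1 kb of a protein-coding gene and 39 within its span. Exons of coding genes overlapped 32 members, 7 of them among the 77 that reached 20 and 25 among the others. Chromosome II held 22.1% of the members that reached 20 and chromosome V 11.7%, where the same chromosomes held 17.1% and 21.5% of all genes at that level.

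Where a member was lower in u74 or u218, the share of nearest coding genes that were lower did not exceed that of coding genes in general. In u74, the nearest coding gene was at least 2-fold lower for 8 of 34 lower members (23.5%), against 28.1% of all coding genes. In u218 this held for 11 of 39 (28.2%, against 34.5%). In e398 it held for 3 of 6, too few for a statement. These shares were not tested.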

How the data were processed

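PolyA RNA of 15 L4 whole-animal samples was sequenced. The authors deposited 1 signal per gene and genotype, named in the table as averaged normalized counts; division by library size factors was read from the steps of the values. The submitters' processing notes name HTSeq, DESeq, DESeq2 and bedtools; how reads were aligned, to which build and annotation and with what strandedness is not given in the sources used here. Symbols, classes and positions come from WBcel235, release 115. All 46926 identifiers matched.

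The smallest values of a column repeat in steps, each 1 read of 1 library, which gave the size factors and whole reads. Below 300 (mutants) and 10 (wild type) normalized counts, 100% of nonzero values had exactly 1 whole-read solution; displaced values had one in 0.175% to 4.5% of cases. Counts are thus derived, and no count model was used. limma 3.58.1 (R 4.3.3, trend) was run on log2(normalized count + 1) for genes with a mean of at least 5, Benjamini-Hochberg adjusted over all genes tested, threshold 0.05. It was also run on simulated data with the same spread setting for all genes and libraries and few changed genes. That run does not cover library sets, single deviating libraries or changes in many genes, and its outcome is not given here. Averages were compared with a pseudocount of 1, which understates changes of low genes. Log2 ratios are on these scales.

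The genes to name were the 10 highest linc genes, the 5 highest and 5 lowest ratios per mutant, up to 10 limma calls per comparison and members next to 20 normalized counts. Of these, linc-72 and linc-91 (highest mean) and linc-97 and linc-103 (highest ratios in e398) are not described above. Genes chosen after their values were seen were linc-36, linc-89, linc-19, linc-73, linc-118, linc-166, linc-117, linc-126, linc-25, linc-116, linc-124 and linc-171. Members and lists were chosen with earlier results of these data known. Comparing against a wild-type set of libraries was added after the data were seen.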

Additional observations from a re-analysis of the deposited data

Results flagged for a closer look

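In 3 of the 5 named members whose wild-type counts were recovered, 1 wild-type library stood far from the other 5 by Dixon's test at the 95% level. Chance flags about 1 group in 20 where values are normal with equal spread. Low counts from libraries of unequal size factor need not keep to that rate. linc-168 was at 8.82 normalized counts in library 3 and at 0 to 2.04 in the others. linc-39 was at 14.5 in library 3, with the others from 1.88 to 5.49. linc-55 was at 22.0 in library 3 and from 3.77 to 10.6 elsewhere, and only just passed, at 0.6251 against a critical value of 0.625. All 3 are low counts, and in all 3 the library with the high value was the same one.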

How the results depend on the processing

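Counts of members called on averages moved with the filter and the pseudocount. Where a limma call of a named member was lost, its log2 ratio kept its direction. With a minimum of 50 normalized counts, 7 were higher and 4 lower in e398, 1 higher and 20 lower in u74, and 7 higher and 25 lower in u218. With no minimum there were 23 and 19 in e398, 77 lower in u74, and 17 higher and 78 lower in u218. With a pseudocount of 10, higher calls were 6 in e398, 0 in u74 and 6 in u218, and TMM scaling gave 7 higher in u74. The shares of all genes at these settings are not given here, so these counts alone do not set the members apart. By limma, TMM scaling left 3 rises in u218 against u74 and 0 in u218 against wild type, a mean of at least 2 also left 0 there, and voom called 3 rises in e398 and 2 in u218 against wild type. Of all genes, 3.50% and 1.18% rose in these TMM fits, 0.821% with a mean of at least 2, and 25.6% and 5.43% under voom. Against the wild-type set of large size factor, 5 rose and 1 fell in e398. Against that of small size factor, 8 fell in u74, and 2 rose and 3 fell in u218. The cause of these moves was not tested. A mean of at least 10 left no member to test in u74 against wild type.

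With single libraries left out, rises ran from 7 to 10 and falls from 35 to 45 in u74 against e398, from 7 to 11 and 23 to 38 in u218 against e398, and from 1 to 12 and 3 to 10 in u218 against u74. Over all genes, 9.26% to 20.5% rose and 28.1% to 38.6% fell in u74 against e398. In u218 against e398 these shares were 3.89% to 12.4% and 15.4% to 32.4%, and in u218 against u74 1.58% to 32.6% and 6.45% to 24.0%. Against wild type the members had 0 calls for e398 and u74 and 0 to 1 rise for u218, where at most 5.09% of all genes rose and 0.0% fell. A pair of libraries left for a group is assumed to vary like the other genotype. No paired analysis was possible because the recovered libraries carry no replicate numbers. Wild-type tests cover averages up to 10 normalized counts only, the range in which 6 libraries could be recovered from an average.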
